A study of Mus musculus with 6 samples.

Results

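The miR-466 and miR-297 miRNAs of the mouse were examined in LLC1 cells, a line established from a Lewis lung carcinoma of a C57BL mouse, grown for 48 h either as a 2D monolayer on plastic or embedded in a laminin rich extracellular matrix (Geltrex, 0.5 mg/ml) over agarose, called lr-ECM 3D. Members were all mouse miRNAs on the array whose name starts with miR-466 or miR-297, which gave 13 of 566 mouse miRNAs: 10 named miR-466 and 3 named miR-297. RNA of 3 biological replicates per culture condition was hybridised, 1 array per replicate, after 100 ng of total RNA had been labelled with Cy3. Both groups are the same untreated line, and the identity of the line was not checked here, since the arrays measure miRNA alone.

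A miRNA is cut from a hairpin precursor, whose 5' side gives the 5p arm and whose 3' side the 3p arm. The loaded arm guides the Argonaute complex to target mRNAs mainly through its seed, bases 2 to 8. In the mouse, the miR-466 and miR-297 hairpins belong to a large tandem cluster inside an intron of Sfmbt2, a Polycomb group gene on chromosome 2 that is imprinted in early embryos and placenta. The hairpins of this cluster descend from a repeated unit, so that members have closely related, dinucleotide-rich sequences.

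In the RefSeq annotation of assembly GRCm38.p6, 34 hairpin genes carry these names, and 28 of them lie within Sfmbt2, next to 43 hairpin genes named Mir467 or Mir669. The other 6 are Mir466q and Mir466k on chromosome 3, Mir297-1 on chromosome 7, Mir466j on chromosome 10, and Mir466i and Mir466f-4 on chromosome 13. By name, miR-466b has 8 hairpins, all in the cluster, miR-466f has 3 in the cluster and 1 on chromosome 13, miR-297a has 3 in the cluster and 1 on chromosome 7, and miR-466c has 2 in the cluster. MiR-466a, miR-466d, miR-466g, miR-466h, miR-297b and miR-297c have 1 each, in the cluster. A signal of a member with several hairpins is therefore a sum over copies, and the arrays cannot assign it to one of them.

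The sequences shown are those of the family in RefSeq (GRCm38.p6) outside the cluster, to let the repeats that run through the family be seen. The first is a hairpin of miR-297a, and the others are mature miR-466 miRNAs that are not among the 13 members and were not measured. Capitals mark every stretch made of the letters ACACAC or GUGUGU.
Mir297-1 hairpin, chr7:10958437-10958512, minus strand: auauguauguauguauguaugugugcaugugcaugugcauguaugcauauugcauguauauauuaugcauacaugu
miR-466i-3p, chr13:17747552-17747573, plus strand: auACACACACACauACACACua
miR-466q, chr3:28419988-28420007, plus strand: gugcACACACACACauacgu
miR-466k, chr3:85467396-85467418, plus strand: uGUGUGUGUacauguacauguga
miR-466j, chr10:60960802-60960824, plus strand: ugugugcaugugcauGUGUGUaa
MiR-466i-3p and miR-466q are made of A and C for 86.4% and 70% of their bases, whereas miR-466k and miR-466j are made of G and U for 69.6% and 73.9%. The seeds are UACACAC in miR-466i-3p, UGCACAC in miR-466q, GUGUGUG in miR-466k and GUGUGCA in miR-466j, so no 2 of the 4 share a seed. The Mir297-1 hairpin holds neither of the searched letter runs. Its first 38 bases are G or U for 71.1%, and of its remaining bases 42.1% are A or C. Among all 1679 mature mouse miRNAs of the table, 0.655% hold ACACAC and 1.01% hold GUGUGU, each read on the mature strand alone. The table has a mature sequence for 0 of the 13 members. Their own sequences are therefore not shown, and these shares leave them out.

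The arrays differed in brightness before any member was considered. The mean signal over miRNA probes was 5.03 to 40.4 linear units in 2D and 37.8 to 49.9 in lr-ECM 3D, and factors of 0.447 to 4.43 set the arrays to the same mean, with 4.43 for 2D replicate 2, the dimmest. Of the 566 mouse miRNAs, 48 to 101 were well above background in 2D and 120 to 151 in lr-ECM 3D. Of the 2 slides 0 held both groups, and the days of scanning were split in the same way, so slide, scan day and culture condition cannot be told apart in any comparison here. Nor can, in RNA from whole cultures, fewer cells that express a miRNA and less of it per cell. The control spots named miRNABrightCorner30 were 5.04-fold higher in lr-ECM 3D after scaling, with a mean log2 signal of 9.33 ± 0.05 there against 6.99 ± 0.12 in 2D (SD, n = 3 arrays each), and its part in the results on the members was not tested.

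Detection was compared first. It was read on unscaled spots, and only the choice of probe used scaled signals, so it carries the differences in brightness between arrays. No member was well above background in 2D, whereas 7 were in lr-ECM 3D. The scanner software marks each spot that stands well above background, and a probe was taken as detected where 50% or more of its spots had the mark. The probe with the highest mean log2 signal stood for its miRNA. In lr-ECM 3D 7, 6 and 7 of the 13 members were well above background on replicates 1, 2 and 3, a mean of 6.67 ± 0.58 (SD, n = 3), and in 2D 0, 0 and 0 were. An exact permutation test of this difference, two-sided, had p = 0.1 and cannot go lower with 3 arrays per group. Over all 566 mouse miRNAs every lr-ECM 3D array also had more detected, 120 to 151 against 48 to 101. The test therefore does not set the members apart from the rest. The members detected in lr-ECM 3D were miR-466f-3p, miR-466g, miR-297a-3p, miR-466d-3p, miR-466c-5p and miR-466h-5p, on 3 arrays each, and miR-466b-3p on 2. Of all 566 mouse miRNAs, 29 (5.12%) were detected on 3 lr-ECM 3D arrays and 0 2D arrays, and 6 of those 29 were members. The other 6 members were detected on none of the 6 arrays, as were 412 of the 566 (72.8%).

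Each member had 20 spots per array, spread over 2 or 4 probes. On the 2D arrays 0 of 766 kept spots of the 13 members were well above background. In lr-ECM 3D, the share was 100% of 59 spots for miR-466f-3p, miR-466g and miR-466c-5p, 93.1% of 58 for miR-297a-3p, 71.7% of 60 for miR-466h-5p, and 51.7% of 60 for miR-466d-3p and for miR-466b-3p. The other 6 members, all named 5p, had 4 such spots of 357 (1.12%), 2 each on probes of miR-297c-5p and miR-466f-5p. The detected members were thus carried by many spots each, and the remaining ones by almost none.

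**Figure D1:**
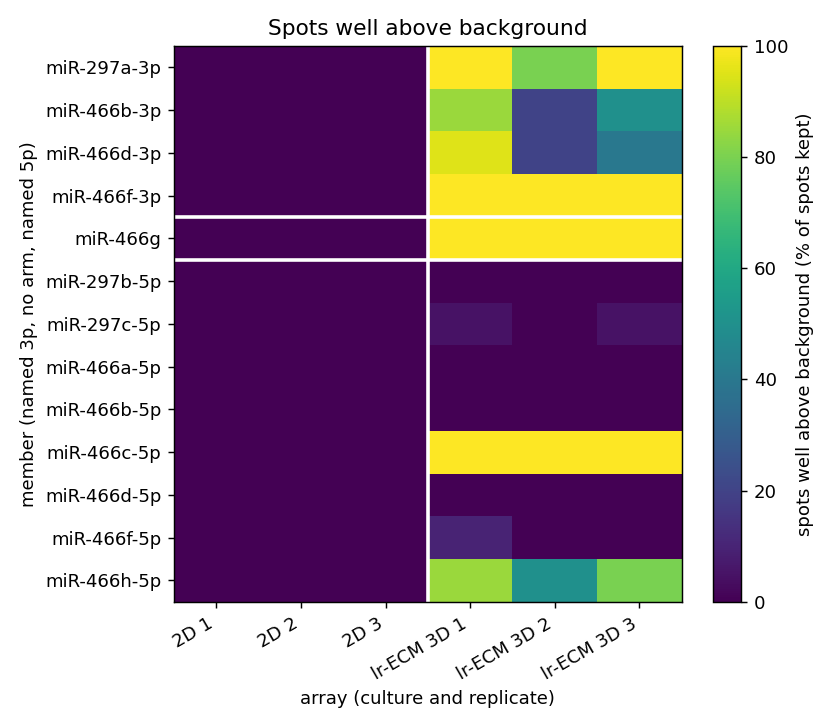
Share of spots well above background for each of the 13 members (rows, grouped as named 3p, no arm in the name, named 5p) on each array (columns), in percent of the spots kept. The 2D columns are at 0 for all members, and the lr-ECM 3D columns are brightest for miR-466f-3p, miR-466g and miR-466c-5p, lower on replicate 2 for miR-466b-3p and miR-466d-3p, and near 0 for the 5p rows other than miR-466c-5p and miR-466h-5p.

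The brightest signals were those of miR-466f-3p and miR-466g. Signals are given in the order of replicates 1, 2 and 3. Before scaling, that of miR-466f-3p (mmu-miR-466f-3p on the array, probe A_54_P3117) was -4.02, -4.98 and -0.477 linear units in 2D and 505.7, 292.6 and 313.7 in lr-ECM 3D. Every 2D value lay below 0 after background subtraction, and the lowest lr-ECM 3D value was 292.6. That of miR-466g (mmu-miR-466g, A_54_P3121), whose name gives no arm, was -6.59, -7.49 and -0.040 in 2D and 478.4, 262.0 and 276.7 in lr-ECM 3D. The pattern was that of miR-466f-3p, with no overlap between the groups. Averaged over all probes, 2D replicate 3 read 40.4, against 38.7 for replicate 2 and 37.8 for replicate 3 of lr-ECM 3D. Both members were below 0 on that 2D array. Its miRNABrightCorner30 control spots, however, had an unscaled signal of 211, while those of the same lr-ECM 3D arrays had 1153 and 1099. The part of array brightness in the 2D signals of these members was not tested.

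A further 3 members had weaker signals with the same separation. MiR-297a-3p (mmu-miR-297a-3p, A_54_P2933) read -10.5, -8.30 and -7.56 in 2D and 111, 70.8 and 74.0 in lr-ECM 3D. MiR-466d-3p (mmu-miR-466d-3p, A_54_P3186) read -7.77, -8.52 and -9.72 in 2D and 61.2, 33.8 and 34.3 in lr-ECM 3D. MiR-466b-3p (A_54_P4399) read -5.72, -7.10 and -3.49 in 2D and 52.2, 28.3 and 26.9 in lr-ECM 3D. In each of the 3 the 2D signals were negative and lr-ECM 3D replicate 1 was the highest. MiR-466b-3p came just short of the detection rule on lr-ECM 3D replicate 2, where 4 of 10 spots of that probe were well above background, against 10 of 10 and 8 of 10 on replicates 1 and 3, while miR-466d-3p came just inside it there, with 3 of 5.

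The 2 detected 5p members had a measurable signal above 0 in 2D as well. MiR-466c-5p (mmu-miR-466c-5p_v15.0, A_54_P3105) read 7.57, 10.9 and 13.0 in 2D and 89.3, 66.0 and 66.2 in lr-ECM 3D. MiR-466h-5p (A_54_P3125) read 3.51, 7.47 and 5.64 in 2D and 76.4, 49.3 and 52.5 in lr-ECM 3D. Their unscaled groups did not overlap, yet none of these 2D signals was well above background. Without scaling the groups were separated in this direction for 41 of the 120 tested miRNAs (34.2%), among them the 6 tested members.

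**Figure D2:**
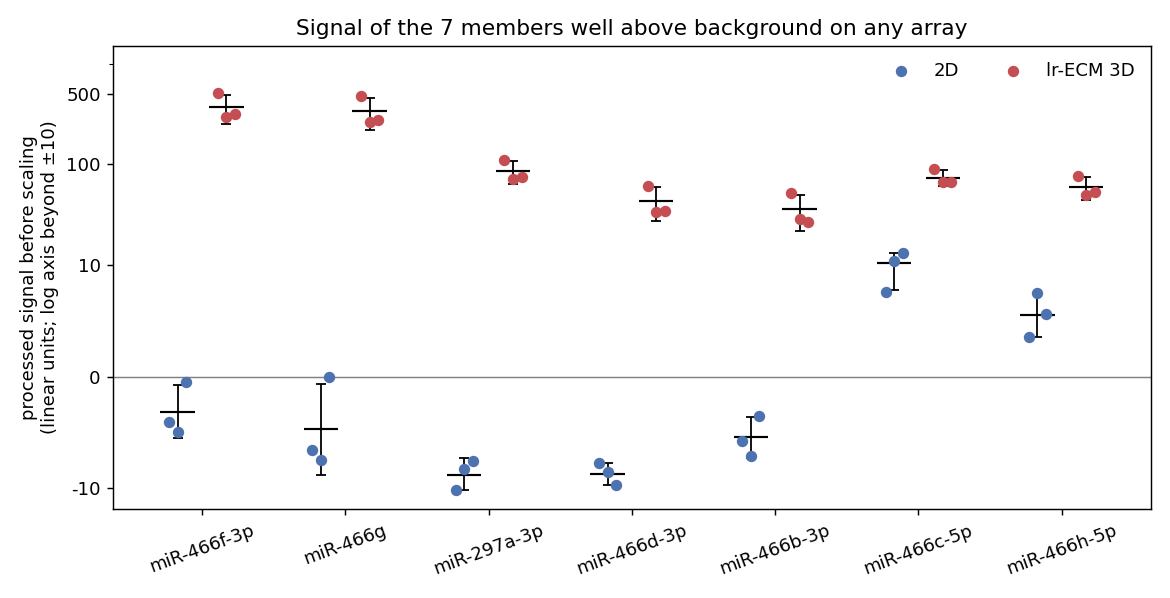
Processed signal before scaling (linear units, log axis beyond ±10) of the 7 detected members on the 3 2D arrays (blue) and the 3 lr-ECM 3D arrays (red), with the mean and SD of each group. The 5 members on the left are below 0 in 2D, miR-466c-5p and miR-466h-5p are between 3.51 and 13.0 there, and all 7 lie higher on each lr-ECM 3D array.

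The 6 members detected on all lr-ECM 3D arrays entered a test with 114 other mouse miRNAs, those detected on every array of either culture, after scaling, a floor at 1 and log2 conversion. By limma with Benjamini-Hochberg adjustment over all 120, 4 of the 6 members were called higher in lr-ECM 3D (adjusted p below 0.05, change of 2-fold or more) and 0 lower. Over all tested miRNAs 10.8% were called higher, 13 of 120, so the members are 4 of those 13. In either direction 11.7% of the 120 were called. All 13 called higher were among the 29 tested miRNAs detected on no 2D array. The 6 tested members also belong to these 29, so the share over all 120 is not a like comparison for them. Each tested member had entered by its detection in lr-ECM 3D and none by 2D, which by itself selects for higher values there. The median log2 change of the 6 was 4.97, against -0.11 for all 120. Over all 13 members with no filter it was 1.48, against -0.07 for all 566, with 8 members above 0 and 5 below.

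The called members were miR-466f-3p, miR-466g, miR-297a-3p and miR-466d-3p. All 4 sat at the floor, a log2 of 0, on each 2D array. In lr-ECM 3D miR-466f-3p had log2 scaled signals of 7.82, 7.40 and 7.53, and its fitted change was 7.58 (SE 0.15, adjusted p = 5.07e-07, limma). It was the largest fitted change of the 120 tested miRNAs under this setting, followed by miR-466g with 7.44, from lr-ECM 3D signals of 7.74, 7.24 and 7.35 (SE 0.16, adjusted p = 6.41e-07, limma). MiR-297a-3p had 5.63, 5.35 and 5.45 and a change of 5.48 (SE 0.12, adjusted p = 6.41e-07, limma). MiR-466d-3p had 4.77, 4.28 and 4.34 and a change of 4.46 (SE 0.17, adjusted p = 5.92e-06, limma). For each of the 4 the lowest lr-ECM 3D value exceeded the highest 2D value, which holds for 24 of the 120 tested miRNAs (20%).

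Because a 2D signal at the floor has no spread, these changes and p-values depend on the floor, and the fold that the arrays measured is a bound. It sets the mean lr-ECM 3D log2 signal against the lowest signal well above background on each 2D array, averaged over the 2D arrays on the log2 scale. That lowest signal was 4.95, 7.02 and 3.80 on replicates 1, 2 and 3. MiR-466f-3p was at least 5.00-fold higher and miR-466g at least 4.54-fold, and the bound was 1.16 for miR-297a-3p, with no fold for miR-466d-3p, whose bound lay under 1. A bound was taken only for the 29 tested miRNAs detected on no 2D array, 6 of them members. One of at least 2 was reached by 10 of these 29 (8.33% of all 120), 2 of them members, so by this measure the members did not stand out. Against 2D replicates 1, 2 and 3 one at a time, the bound was 6.19, 1.47 and 13.7 for miR-466f-3p and 5.62, 1.34 and 12.4 for miR-466g, so the dimmest array sets the limit. That of miR-297a-3p was 1.44, 0.34 and 3.19 in the same order, and that of miR-466d-3p was 0.71, 0.17 and 1.58. A bound under 1 gives no fold, so for these 2 members not every 2D array set one. The normexp background correction was run with an offset of 50 linear units added to each signal, which narrows the folds of weak signals most. With it miR-466f-3p and miR-466g were still called, with changes of 2.39 and 2.33. MiR-297a-3p fell just under the fold limit, with a change of 0.99 (adjusted p = 0.0153, limma). MiR-466d-3p lost its call, with 0.54 (adjusted p = 0.133, limma). The share of the offset in these 2 losses was not tested. The median change of all tested miRNAs was 0.41 under that correction.

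The 2 tested 5p members were not called. The log2 scaled signal of miR-466c-5p was 2.98, 5.59 and 2.84 in 2D and 5.32, 5.25 and 5.28 in lr-ECM 3D, and its change was 1.48 (SE 0.77, adjusted p = 0.276, limma). That of miR-466h-5p was 1.87, 5.05 and 1.64 in 2D and 5.09, 4.83 and 4.95 in lr-ECM 3D, and its change was 2.10 (SE 0.94, adjusted p = 0.242, limma). Scaling lifted the signal of 2D replicate 2, which was not well above background, above all 3 lr-ECM 3D values for miR-466c-5p and among them for miR-466h-5p. Without that array both were called, with changes of 2.37 and 3.2 and adjusted p of 4.75e-07 and 2.71e-07 in limma, and 27 of 121 tested miRNAs (22.3%) were then called higher. Their bounds were 1.02 for miR-466c-5p and under 1 for miR-466h-5p. Both were also called without scaling, with the 75th percentile over all probes, with total gene signal and with the deposited values. The median change of all tested miRNAs under these settings was 1.24, 0.04, 0.66 and 0.76, in that order, so most of them moved tested miRNAs upward in general.

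**Figure D3:**
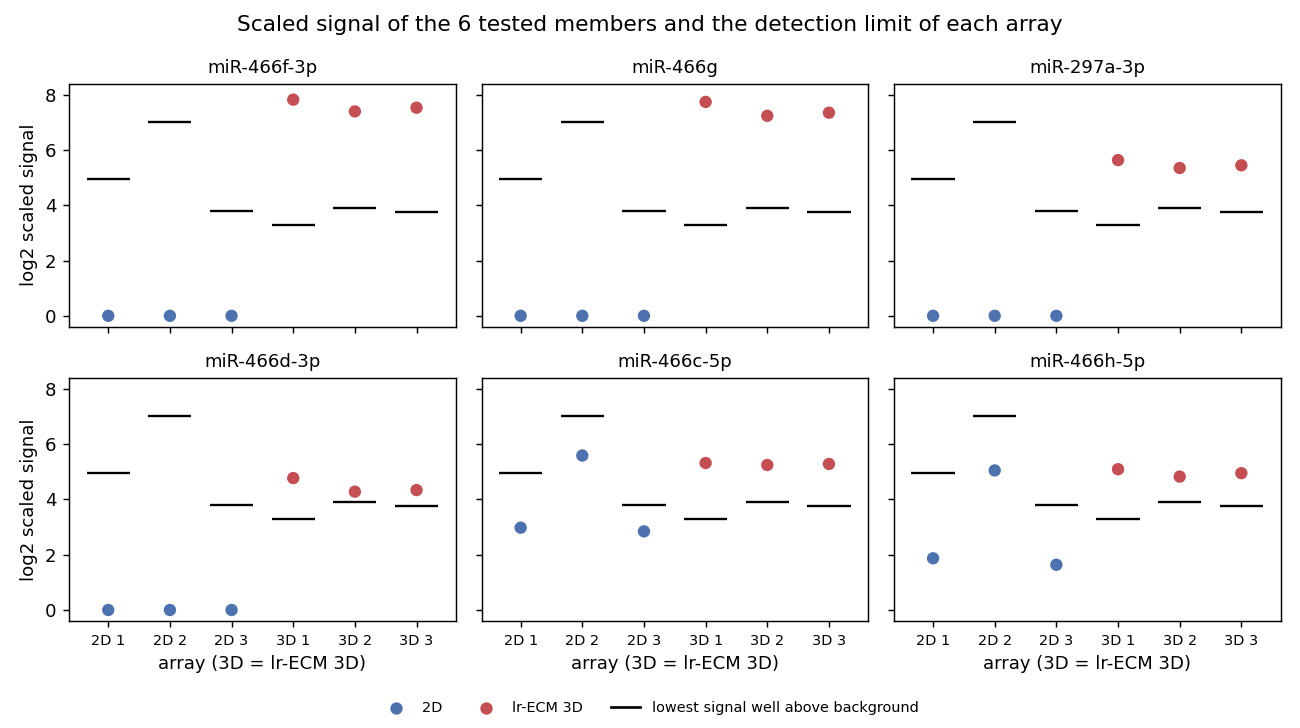
Log2 scaled signal of the 6 tested members on each 2D array (blue) and lr-ECM 3D array (red), with a bar at the lowest signal well above background on that array. The bar of 2D replicate 2 stands at 7.02, below the lr-ECM 3D points of miR-466f-3p and miR-466g and above those of the other 4 members.

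Probes of each of the 7 detected members gave the same direction. All 4 probes each of miR-466f-3p, miR-466g, miR-297a-3p and miR-466d-3p and both probes of miR-466b-3p separated the groups, with all lr-ECM 3D signals above all 2D signals, scaled or not. Across its probes the mean unscaled lr-ECM 3D signal of miR-466f-3p ran from 186 to 370.7 and that of miR-466g from 214 to 339, and their log2 changes from 6.57 to 7.58 and from 6.81 to 7.44. For miR-466h-5p all 4 probes separated the groups before scaling and 2 did after it, and for miR-466c-5p 2 of 2 did before and 0 after. Of the silent members miR-466f-5p alone had probes that separated the groups, 2 of 4 before scaling and 0 after, and its fitted changes ran from -1.55 to 1.25 over its 4 probes.

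The members named 3p were detected more often than those named 5p. Of the 4 members named 3p, 4 were well above background on at least 2 lr-ECM 3D arrays and 3 were called. Of the 8 named 5p, 2 were well above background and 0 were called. Over all mouse miRNAs, detection on 3 lr-ECM 3D arrays and 0 2D arrays was met by 15 of 255 named 3p (5.88%) and 8 of 248 named 5p (3.23%), which include 3 and 2 members, and 9 of 53 tested 3p miRNAs (17%) and 2 of 54 tested 5p miRNAs (3.7%) were called higher. The difference between arms among the members is a description of 13 names, many of which share hairpins and sequence, and was not tested.

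Both arms were on the array for miR-466b, miR-466d and miR-466f. In each of these 3 the 3p arm was detected in lr-ECM 3D and the 5p arm, by the same rule on spots, on no array. MiR-466f-5p (A_54_P3113) had unscaled signals of 0.698, 3.66 and 7.48 in 2D and 19.8, 16.5 and 18.3 in lr-ECM 3D, the highest of the silent members. Its groups did not overlap before scaling, and the software's own gene-level flag counted it as detected on lr-ECM 3D replicates 1 and 3. MiR-466d-5p (A_54_P3182) read -3.27, -4.21 and 5.35 in 2D and -4.60, -3.63 and -0.234 in lr-ECM 3D, with no separation. MiR-466b-5p (A_54_P3097) read 4.02, 9.36 and 7.85 in 2D and 15.6, 7.22 and 9.36 in lr-ECM 3D, so that its groups overlapped, and the gene-level flag counted it on lr-ECM 3D replicate 1.

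The remaining silent members were miR-466a-5p, miR-297b-5p and miR-297c-5p. Over all 6 members without detection, unscaled signals lay between -4.21 and 10.4 in 2D and between -4.60 and 19.8 in lr-ECM 3D. Their fitted changes were above 0 for 1, miR-466f-5p with 1.25, and below 0 for 5, down to -1.96 for miR-466a-5p. These are differences between signals under the detection limit, and no fold is given for them. Within the miR-297 name, the 3p arm of miR-297a was thus called higher while miR-297b-5p and miR-297c-5p were not detected on any array.

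**Figure D4:**
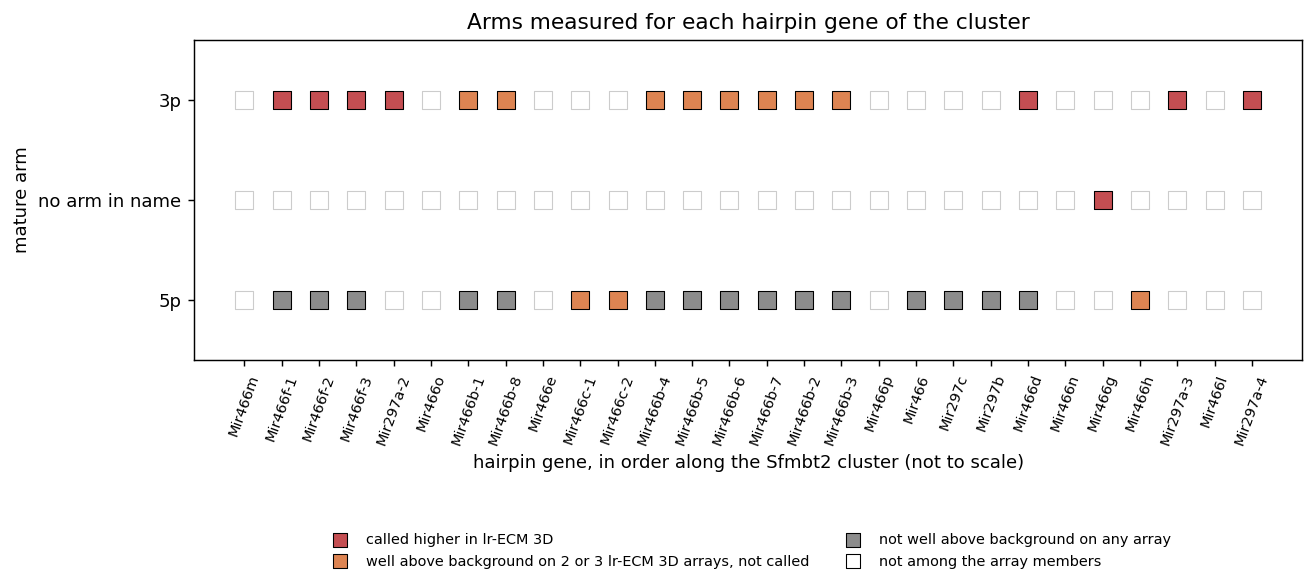
The 28 Mir466 and Mir297 hairpin genes in their order along the Sfmbt2 cluster (horizontal axis, not to scale), with the state of each mature arm on the array matched by name. Members of several hairpins appear at each copy, and arms not among the array members are left white. The called members stand toward both ends of the row, and miR-466g among them has no arm in its name. Of the 5p arms on the array, those at Mir466c-1, Mir466c-2 and Mir466h were detected and the others were silent.

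Along the cluster the hairpins of the called members lay toward both ends. Several hairpins between them have no 3p arm among the array members. MiR-466b-3p, whose 8 hairpins all lie between them, was detected in lr-ECM 3D but not tested. MiR-466f also has a hairpin on chromosome 13 and miR-297a on chromosome 7, so their signals cannot be placed at these positions. Mir466f-1, Mir466f-2, Mir466f-3 and Mir297a-2 are the 2nd to 5th hairpin genes of these names, and Mir466d, Mir466g, Mir297a-3 and Mir297a-4 lie from position 22 to position 28. The hairpins of 3 silent members, Mir466 (taken as that of miR-466a), Mir297c and Mir297b, stand at positions 19, 20 and 21, directly before Mir466d. Mir466g and Mir466h are neighbours at positions 24 and 25, and their members differed in the call.

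The other names of the cluster on the array, miR-467 and miR-669, numbered 11. Of these 6 were tested, 3 were called higher and 0 lower, and 0 of the 11 were detected on any 2D array. The called ones were all named 3p, miR-467b-3p, miR-467d-3p and miR-467e-3p. They too sat at the floor on the 2D arrays and entered the test by lr-ECM 3D alone, so that their fitted changes of 6.64, 6.74 and 6.30 on the log2 scale are set by the floor, and they were at least 2.61-fold, 2.80-fold and 2.06-fold higher by the bound. The tested ones not called, miR-669a, miR-669b-5p and miR-669n, had changes of 1.54 to 2.36 with adjusted p of 0.17 to 0.31 in limma. The difference between these names and the miR-466 and miR-297 members was not tested.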

How the data were processed

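Members and lists were chosen with earlier results of these data known. The deposited scanner files hold the processed intensity of each spot, background-subtracted and detrended by the authors' scanner software (Feature Extraction 10.7.3.1 per the labels). A deposited table gives the authors' log2 values, which differ from the log2 of the floored intensity by 1 constant per array (largest departure 0.049). Per the methods, arrays were scaled to the control mean, which was read here as a linear scaling to the 2D mean. The deposited columns instead share a mean log2 value of 1.79, so this reading is uncertain, and 4 members were called with it against 6 with the deposited values. The median change of all tested miRNAs was -0.11 with the linear scaling and 0.76 with the deposited values. Here control spots and 190 to 369 outlier spots per array were left out, spots of a probe averaged (1712 probes), arrays scaled on the linear scale to the mean of the 2D arrays, floored at 1 and converted to log2, and each miRNA taken as its probe with the highest mean. No spot was saturated (0 per array). Any miRNA detected on every array of either culture entered the two-sided test of limma 3.58.1 (lmFit and eBayes, R 4.3.3) with Benjamini-Hochberg adjustment. The same fit was also run on simulated data. The rule for named miRNAs was that every member is accounted for, with values on every array for those detected. Names were matched to RefSeq tables of GRCm38.p6, where 471 of the 566 mouse miRNAs on the array had a mature sequence; the array header names an older build, so no cluster coordinates are given. Arrays were not paired by replicate number in the main fit, and the labels do not say whether same-numbered cultures were grown together. Deviations of same-numbered arrays correlated at -0.32, -0.37 and 0.16, which cannot settle it. With 3 arrays per culture, their number sets the precision.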

Additional observations from a re-analysis of the deposited data

How the results depend on the processing

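Where a value moved, the cause was not tested. The 4 calls became 2 with normexp background correction and its offset of 50. MiR-466f-3p and miR-466g were called under 18 of 18 alternatives, miR-297a-3p and miR-466d-3p under 17 and miR-466c-5p and miR-466h-5p under 5, and no change turned its sign. With each array left out, 4 to 6 members were called, 6 on leaving out 2D replicate 2 and 5 on leaving out lr-ECM 3D replicate 2, where miR-466b-3p was tested and called. The methods' t-test and the replicate block kept the count at 4, and the block changed no call. With no filter 5 of the 13 were called higher, against 28 of all 566 (4.95%). The filter on all 6 arrays left 0 members, and slide could not be fitted as a block.

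The median log2 change of the tested members moved from 4.97 to 5.88 with no scaling, 5.21 and 4.75 with the 75th percentile over detected and over all probes, 0.78 with normexp, 1.68 with a floor at 10, 4.46 with the mean over all probes, 5.35 with the deposited values, 1.48 with no filter and 5.57 with total gene signal, and ranged from 4.22 to 5.44 with an array left out. The median of all tested miRNAs moved with the scaling, from -0.11 to 1.24 with no scaling, 0.21 and 0.04 with the 2 percentiles, 0.76 with the deposited values and 0.66 with total gene signal; relative to it, the median of the members was 4.58 to 5.08 higher under these settings, 4.54 with the mean over all probes, 1.80 with a floor at 10, 1.55 with no filter and 0.37 with normexp. The difference in detected members was 6.0 when all spots of a probe had to be well above background and 8.0 by the gene-level flag, and 6.5 to 7.0 with an array left out. For miR-467 and miR-669, 6 were called instead of 3 with no scaling, with the 75th percentile over all probes, with the deposited values, with total gene signal and without 2D replicate 2; with an array left out the count was 3 to 6. Detection limits the rest: on 2D replicate 2 it lay at a log2 of 7.02, above the lr-ECM 3D signal of every member but miR-466f-3p and miR-466g.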

Other observations

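Across the lr-ECM 3D arrays the 7 detected members varied together. After scaling, lr-ECM 3D replicate 1 was the highest of the 3 arrays for 7 of the 7, and replicate 2 the lowest for 6. Over the 120 tested miRNAs replicate 1 was the highest for 34 (28.3%) and the lowest for 72 (60%), while replicate 2 was the highest for 66 (55.0%). Members share hairpins and related sequences and are not independent, and this is a description with no test.

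Of the 471 mouse miRNAs on the array with a mature sequence in the RefSeq table, 4 hold the letters ACACAC and 6 hold GUGUGU. These 471 include 0 of the 13 members, so the members themselves were not searched for these letters. Of the first 4 only miR-574-3p was tested, and it was called higher, by a fitted 7.24 on the log2 scale (adjusted p = 5.07e-07, limma). Its 2D signals were at the floor, which sets that value, and by the bound it was at least 3.95-fold higher. Of the other 6, 3 were tested and 0 called by limma. MiR-574-5p, miR-669n and miR-672-5p, named after their values were seen, had changes of 1.53, 2.36 and 2.5 with adjusted p of 0.0547, 0.17 and 0.146 in limma. Their sequences are shown with the repeats in capitals, and nothing is drawn from them about the members.
miR-574-3p: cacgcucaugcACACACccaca
miR-574-5p: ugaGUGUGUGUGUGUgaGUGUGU
miR-669n: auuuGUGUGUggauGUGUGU
miR-672-5p: ugagguugguguacuGUGUGUga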
